A study of Mus musculus with 90 samples.

Results

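Hepatic fatty acid synthesis was followed through 10 genes, 3 that regulate the pathway and 7 that encode its enzymes, across 54 liver RNA libraries of mice trained to night-restricted feeding (NRF). The genes were Srebf1, Mlxipl, and Thrsp among the regulators and Acly, Acaca, Acacb, Fasn, Scd1, Elovl6, and Me1 among the enzymes. They were chosen by their known roles, each was read from the RefSeq transcript with the highest mean expression for its symbol, and they make up 10 of the 24312 gene symbols in the RNA table. Expression is given as RPKM, reads per kilobase of transcript scaled to the mapped reads of the library, and positions of glucocorticoid receptor (GR) peaks, FOXO1 peaks, and DNase hypersensitive sites (DHSs) near the genes were taken from the peak lists.

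The pathway turns carbohydrate carbon into fat. Citrate leaves the mitochondria and is cleaved to acetyl-CoA, acetyl-CoA carboxylase makes malonyl-CoA, and fatty acid synthase builds palmitate, which is then elongated and desaturated, with malic enzyme supplying part of the NADPH. In liver, insulin acts on the pathway largely through SREBP-1c, a product of Srebf1, and glucose through ChREBP, the product of Mlxipl.

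The mice were of C57BL/6 strain or background, C57BL/6N in the feeding, injection, and L-GRKO experiments and C57BL/6J in the L-IRSdKO experiment, males in the feeding and diet experiments, and about 10 weeks old in the feeding, injection, and L-IRSdKO experiments, and had received food only in the dark phase for 4 days. Livers were taken at ZT10, before food, or at ZT14, either from mice given food at ZT12 (fed) or from mice kept without it (unfed). The first experiment held 2 libraries each of untreated ZT10, ZT14-unfed, and ZT14-fed livers and was the only one made from ribosome-depleted RNA, the others being poly(A) RNA. The injection experiment held 5 groups of 4 at ZT14, which were unfed vehicle, fed vehicle, fed dex (1 mg/kg dexamethasone, a synthetic glucocorticoid), fed S961 (an insulin receptor antagonist), and fed dex + S961, all given into the peritoneum 30 minutes before food. The L-GRKO experiment compared 4 unfed Nr3c1 fl/fl mice that had received AAV-CRE, a hepatotropic virus carrying the recombinase under the hepatocyte promoter TBG, with 4 unfed Nr3c1 fl/fl mice that had received AAV-GFP. The L-IRSdKO experiment compared 4 Irs1 fl/fl, Irs2 fl/fl mice carrying Alb-Cre, driven by the albumin promoter, with 4 floxed mice without Cre, and both groups were fed and had received 1 mg/kg dex. The diet experiment held 3 lean and 3 obese mice in each of the unfed and fed states, on chow or on a high-fat diet with 60% of its energy from fat for 10 weeks from the age of 5 weeks. In whole liver, fewer cells of a type and less RNA per cell cannot be told apart.

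The number of reads worth 1 step of RPKM gave depths of about 25870000 to 37880000 reads in the feeding libraries, 6470000 to 13390000 after injection, 14860000 to 27730000 in the L-GRKO experiment, 3590000 to 4420000 in the L-IRSdKO experiment, and 16490000 to 61540000 in the diet experiment, and the member with the fewest reads in any library, Acaca in L-IRSdKO replicate 3, still had an estimated 55.8. For every library of the L-IRSdKO experiment the study's supplement lists more reads than the depth estimated here, and the reason was not tested. Nr3c1 was 12.8, 14.5, 13.2, and 16.2 RPKM in the AAV-GFP livers and 3.93, 4.23, 4.14, and 5.35 RPKM in the L-GRKO livers. Irs1 was 2.21, 4.7, 4.73, and 4.5 RPKM in the floxed controls and 0.15, 0.16, 0.32, and 0.17 RPKM in the L-IRSdKO livers, whereas Irs2 (0.61 to 5.61 against 0.27 to 1 RPKM) overlapped between the groups. Obese unfed replicate 1 correlated better with the lean unfed livers (mean r = 0.976) than with its own group (0.968), and replicates 2 and 3 were closest to the obese fed livers. Replicate 4 of the fed vehicle, fed dex, and fed S961 groups was closest to the unfed vehicle livers, S961 replicates 1 and 3 to fed vehicle, and S961 replicate 2 to dex + S961, so that 9 of the 54 libraries were closer to another group than to their own. The labels of replicate 4 carry library codes of another series. Its own-group mean held no other liver of that series, whereas the mean of every other injected group included a replicate 4. The closest group of replicate 4 therefore cannot show that these fed livers resembled unfed livers. The highest value in each L-IRSdKO and floxed library was 674 to 914 RPKM, against 18853 to 60597 RPKM elsewhere, so levels are compared within an experiment only. The 20 highest genes held 3.2 to 3.7% of the summed RPKM in these libraries, against 24 to 35.6% elsewhere. Whether this also affects fold changes of highly expressed genes within the L-IRSdKO experiment was not tested.

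Differences below are on the log2(RPKM + 0.5) scale with the standard error (SE), from limma with Benjamini-Hochberg adjustment over all genes tested in an experiment, called at an adjusted p under 0.01 in the feeding and diet experiments and under 0.05 in the others. Over the 16 comparisons of 2 groups, 23 calls fell on the 10 genes. The share of all tested genes called in a comparison ran from 0% to 17.4%. Comparisons within the feeding, injection, and diet experiments share groups, so these calls are not independent of each other. Srebf1 took 9 of the 23 calls, 4 higher and 5 lower, Fasn 4, and Thrsp 3, all 3 lower, whereas Acly and Scd1 were never called.

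**Figure D1:**
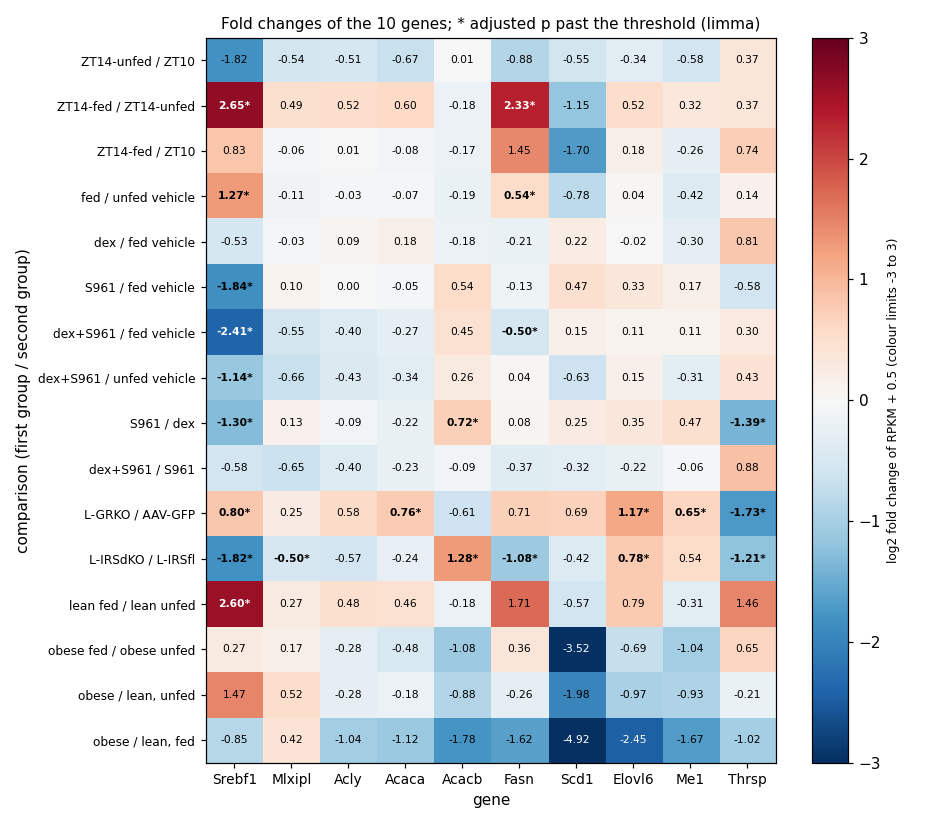
Log2 fold change of each of the 10 genes (columns) in each comparison of 2 groups (rows), with marks for the differences called by limma. Srebf1 holds 9 of the 23 calls, and the 7 enzymes move by less than Srebf1 in the injection comparisons. Many comparisons share groups, and 0% to 17.4% of all tested genes were called in each.

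The sequences of 5 regions bound near these genes are shown as examples. They lie near genes whose calls are described below and hold a motif of the factor in whose list they stand. Other regions, among them some near Mlxipl, Acacb, and Elovl6, do so as well and are not shown. A GR peak lay 1178 bp upstream of the start of Thrsp, which encodes a small nuclear and cytosolic protein of lipogenic tissues (chromosome 7, minus strand). Acacb, which encodes the acetyl-CoA carboxylase isoform of the mitochondrial surface, had a GR peak 320 bp upstream of its start on chromosome 5 (plus strand), which shares all but 6 of its bases with a FOXO1 peak. Elovl6, the elongase that makes stearate from palmitate, had a FOXO1 peak 246 bp upstream on chromosome 3 (plus strand). Me1, cytosolic malic enzyme, had a GR peak 11653 bp upstream on chromosome 9 (minus strand), which overlaps a FOXO1 peak, and Fasn had a GR peak 2141 bp inside the gene on chromosome 11 (minus strand) that overlaps a coding exon. All positions are in mm9, sequences run 5′ to 3′ on the strand of the gene, and capitals mark ACANNNTGT, the palindromic form of the GR site, or, in the region of Elovl6, TGTTTAC, a FOXO site, searched on both strands.
Thrsp, GR, chr7:104567328-104567507: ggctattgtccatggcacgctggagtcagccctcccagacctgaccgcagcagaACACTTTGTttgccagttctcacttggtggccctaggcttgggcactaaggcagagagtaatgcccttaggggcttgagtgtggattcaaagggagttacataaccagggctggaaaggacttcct
Acacb, GR, chr5:114596134-114596313: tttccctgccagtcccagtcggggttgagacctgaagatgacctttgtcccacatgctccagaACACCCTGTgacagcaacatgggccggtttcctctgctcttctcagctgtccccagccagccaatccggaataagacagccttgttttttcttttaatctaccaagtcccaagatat
Elovl6, FOXO1, chr3:129234968-129235147: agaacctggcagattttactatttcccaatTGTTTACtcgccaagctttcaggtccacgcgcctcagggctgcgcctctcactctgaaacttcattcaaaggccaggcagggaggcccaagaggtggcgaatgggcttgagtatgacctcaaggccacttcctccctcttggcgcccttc
Me1, GR, chr9:86601510-86601689: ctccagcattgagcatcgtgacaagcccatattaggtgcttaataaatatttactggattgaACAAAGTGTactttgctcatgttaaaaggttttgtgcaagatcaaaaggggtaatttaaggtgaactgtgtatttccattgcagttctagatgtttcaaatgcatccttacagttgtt
Fasn, GR, chr11:120683261-120683440: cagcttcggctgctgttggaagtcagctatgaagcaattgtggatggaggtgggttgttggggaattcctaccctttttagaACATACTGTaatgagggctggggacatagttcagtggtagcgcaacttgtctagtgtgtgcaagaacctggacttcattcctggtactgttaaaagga
ACANNNTGT occurred in 6 of the 24 GR peaks within 50 kb of the genes' starts, against 20.3% of all 10446 GR peaks, and TGTTTAC in 4 of the 16 FOXO1 peaks, against 18.8% of all 8546. A match describes the letters of the region and not a bound site.

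The GR and FOXO1 peaks are those of unfed livers at ZT14, and the study reported lower occupancy by both factors after feeding. GR peaks were found within 50 kb of 9 of the 10 genes, against 48.8% of the 9255 tested genes with a position, and FOXO1 peaks within 50 kb of 8, against 51.7%. Elovl6 had 5 GR and 4 FOXO1 peaks, more than any of the other 9 genes, and Mlxipl had 4 GR and 3 FOXO1 peaks, among them a GR peak 1531 bp and a FOXO1 peak 1469 bp downstream of its start. Acacb had 4 GR and 2 FOXO1 peaks, Scd1 3 and 2, Acaca 3 and 1, Acly 1 and 2, and Me1 1 and 1. Fasn and Thrsp had GR peaks but no FOXO1 peak within 50 kb, the nearest FOXO1 peaks lying 73979 and 78960 bp away.

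Srebf1 was the exception among the 10 genes, with no GR peak within 100 kb. Its nearest GR peak lay 173581 bp away and its nearest FOXO1 peak 18098 bp upstream of the gene's 5′ end, whereas 1 DHS had its centre 28 bp upstream of the start site at 60023967 and 139 bp upstream of that at 60023856 on chromosome 11. Of the GR peaks near the 10 genes, 11 of 24 overlapped a FOXO1 peak, against 48.8% of all GR peaks, and 17 of 24 a DHS, against 81.6%. By place, 13 lay in introns, 10 outside the genes, and 1 over an exon. All 10 genes had DHSs within 50 kb, 109 in total, with a median of 10 per gene against 8 over the tested genes. The E-box CACGTG, a motif read by USF and related to that of ChREBP, occurred in 8 of these 109 DHSs, against 3.23% of all DHSs, and TCACNCCAC, a form of the sterol regulatory element, in 1, against 0.59%.

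**Figure D2:**
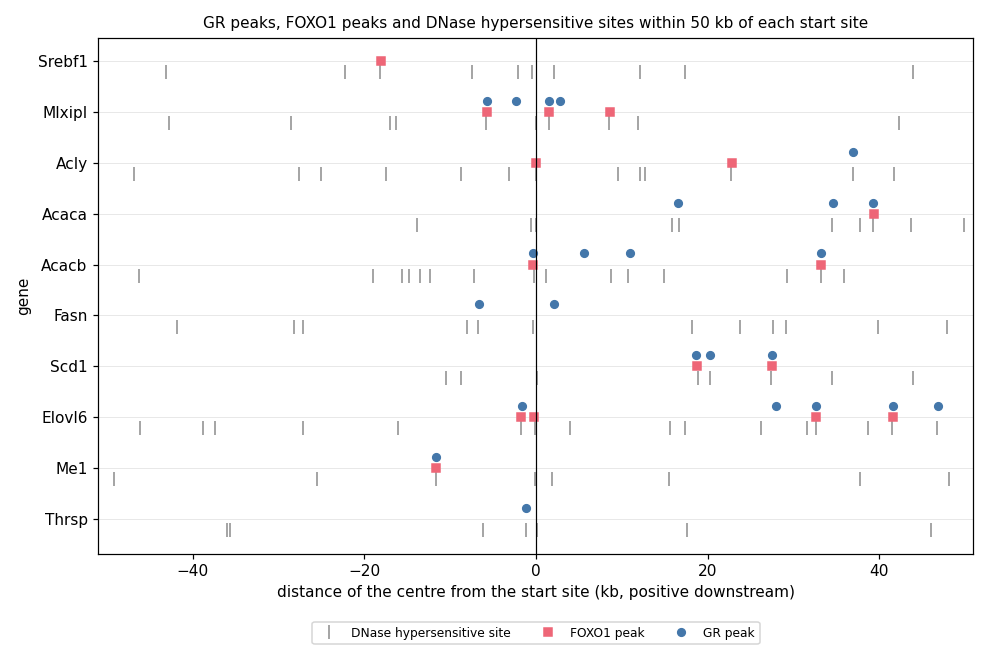
Distance of each GR peak, FOXO1 peak, and DHS from the start site of each of the 10 genes (x axis, kb; negative values lie upstream), within 50 kb. Srebf1 shows no GR peak, and Elovl6 shows 5 GR and 4 FOXO1 peaks.

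The first question was how the genes differed between ZT10 and ZT14 and with the meal in untreated mice. Srebf1 and Fasn were called higher in ZT14-fed than in ZT14-unfed livers, 2 of 10 genes against 0.568% of the 10907 tested genes called higher and 0.99% called in either direction. Srebf1 was 12.7 and 5.77 RPKM unfed and 52.1 and 61.5 RPKM fed, and Fasn was 14.4 and 8 RPKM unfed and 46.8 and 67.5 RPKM fed. Both genes lay apart, and no other member was called. Acaca was 2.86 and 1.98 RPKM unfed and 3.56 and 4.18 RPKM fed, a difference of 0.6 (SE 0.16) with an adjusted p of 0.071 by limma. Scd1, the stearoyl-CoA desaturase, went the other way, with 590 and 292 RPKM unfed and 172 and 201 RPKM fed (−1.15, SE 0.3, adjusted p = 0.063). Values of the fed and unfed livers did not overlap for 8 of the 10 genes, but with 2 libraries a group this held for 59.7% of all tested genes.

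Between ZT10 and ZT14-unfed, 4 hours apart without food, no member was called by limma, against 1.16% of all tested genes called. An unadjusted p under 0.05 by limma was reached by 6 members and by 2876 of the 10907 tested genes. Acaca (3.88 and 4.32 RPKM at ZT10) and Me1 (8.74 and 8.59 RPKM at ZT10, 5.62 and 5.68 RPKM at ZT14-unfed) were among the 7 members whose ZT14-unfed values all lay below those at ZT10, against 56.2% of tested genes whose values did not overlap in either direction. Between ZT10 and ZT14-fed, again no member was called, against 1.71% of tested genes. Here 3 members and 3087 of the 10907 tested genes had an unadjusted p under 0.05 by limma. Values of 6 members did not overlap, against 58.4%. Scd1 at 690 and 535 RPKM at ZT10 had the largest difference to the fed livers (−1.7, SE 0.3, adjusted p = 0.019), and Fasn the next largest (1.45, SE 0.27, adjusted p = 0.022). The calls of Srebf1 and Fasn for the meal rested on these few libraries. Without ZT14-fed replicate 1 the adjusted p by limma was 0.048 for Srebf1 and 0.035 for Fasn, and without ZT14-fed replicate 2 it was 0.075 and 0.071. Without ZT14-unfed replicate 2, Scd1 was called for the meal (−1.66, adjusted p = 0.0061), and Srebf1 was called between ZT10 and ZT14-unfed without either ZT14-unfed library (−2.35, adjusted p = 0.00025, without replicate 1, and −1.28, adjusted p = 0.0099, without replicate 2).

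**Figure D3:**
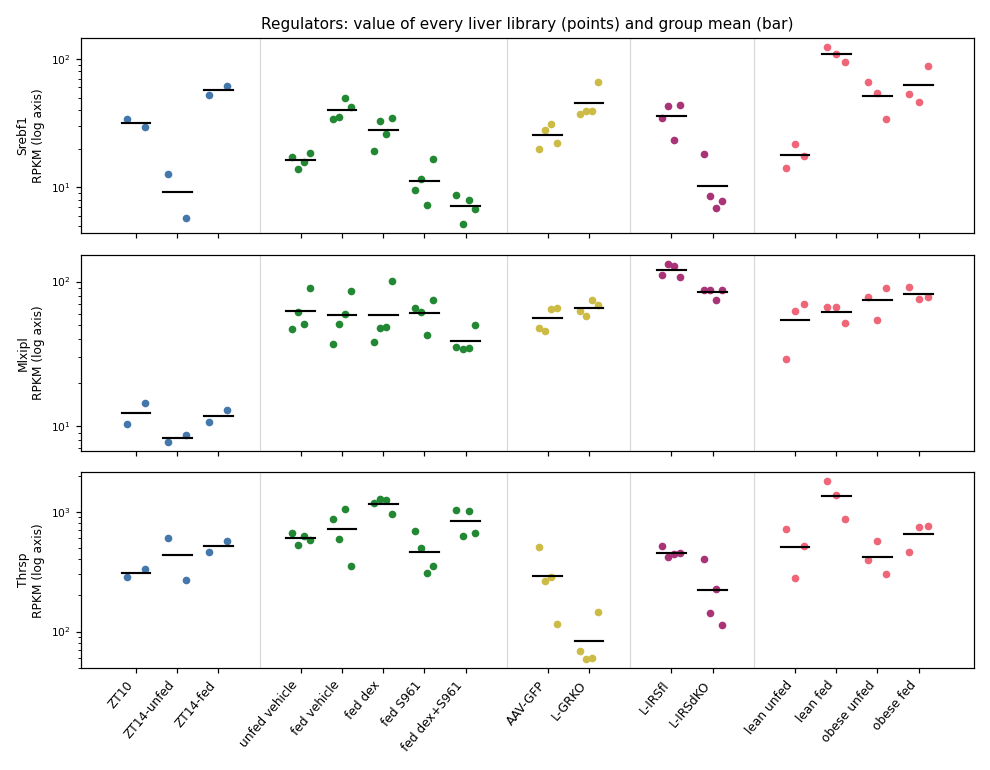
Expression of the 3 regulators Srebf1, Mlxipl, and Thrsp in every library (points; RPKM, log axis) with the group mean (bar), by group and experiment. Srebf1 is lowest in the fed dex + S961 livers of the injection experiment (5.17 to 8.82 RPKM), and Thrsp falls from 115 to 506 RPKM in the AAV-GFP livers to 58.9 to 146 RPKM in the L-GRKO livers.

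After injection the meal again raised Srebf1 and Fasn, and the insulin receptor antagonist lowered Srebf1. Srebf1 was 17.3, 13.8, 15.7, and 18.4 RPKM in the unfed vehicle livers and 34.3, 35.2, 49.6, and 42.1 RPKM in the fed vehicle livers, which did not overlap. Fasn was 29.3, 20.2, 22.7, and 26.7 RPKM unfed and 33.9, 32.8, 40.5, and 36.5 RPKM fed, again without overlap. Both were called higher, 2 of 10 members against 2.55% of the 11251 tested genes (3.13% in either direction), with differences of 1.27 (SE 0.22, adjusted p = 0.0061) for Srebf1 and 0.54 (SE 0.13, adjusted p = 0.028) for Fasn by limma. No other member's groups were apart, and 13.5% of all tested genes did not overlap. The call of Fasn was lost without fed vehicle replicate 1 (0.56, adjusted p = 0.052), 2 (0.58, 0.051), or 3 (0.48, 0.08) and without unfed vehicle replicate 2 (0.45, 0.1) or 3 (0.5, 0.085), and Scd1 was called lower without unfed vehicle replicate 4 (−1.07, adjusted p = 0.043).

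Srebf1 was 9.57, 11.7, 7.28, and 16.5 RPKM in the fed S961 livers and 8.82, 5.17, 7.99, and 6.81 RPKM in the fed dex + S961 livers. Each of these 8 values lay below each of the 4 fed vehicle values, whereas the fed dex values of 19.1, 32.9, 25.8, and 34.6 RPKM overlapped them. The difference from fed vehicle was −1.84 (SE 0.22, adjusted p = 0.00052 by limma) with S961, a 0.28-fold level, −2.41 (SE 0.22, adjusted p = 3.2e-06) with dex + S961, and −0.53 (SE 0.22, adjusted p = 0.2) with dex. The dex + S961 livers, although fed, also lay below the unfed vehicle livers (−1.14, SE 0.22, adjusted p = 0.0089), and the S961 livers below the dex livers (−1.3, SE 0.22, adjusted p = 0.00079). The difference between dex + S961 and S961 was −0.58 (SE 0.22, adjusted p = 0.25), and the interaction of dex and S961 was −0.04 (SE 0.31, adjusted p = 1). These comparisons share control groups and are not independent of each other. Srebf1 kept its call in each of the 21 other settings run for the meal, S961, and dex + S961 against fed vehicle, dex + S961 against unfed vehicle, and S961 against dex.

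Srebf1 was the 1 member called with S961, against 0.96% of tested genes called lower and 1.9% in either direction, and Srebf1 and Fasn were the 2 called with dex + S961, against 7.9% lower and 10.6% in either direction. The same genes, 1 and 2 of 10, were the members whose values did not overlap with fed vehicle, against 6.49% and 17.1% of tested genes. Fasn was 24.2, 23, 26.3, and 27.3 RPKM with dex + S961, all below the fed vehicle values (−0.5, SE 0.13, adjusted p = 0.016 by limma), while its S961 values of 28.4, 31.2, 32.2, and 39.9 RPKM overlapped them (−0.13, SE 0.13, adjusted p = 0.73). None of the other 6 enzymes was called with S961. Acly, Acaca, Elovl6, and Me1 lay between −0.05 and 0.33 and Scd1 and Acacb at 0.47 and 0.54. The call of Fasn with dex + S961 was lost without fed vehicle replicate 3 (−0.44, adjusted p = 0.051) or dex + S961 replicate 2 (−0.46, adjusted p = 0.059), and Acly was called lower without dex + S961 replicate 3 (−0.52, adjusted p = 0.014).

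Acacb and Thrsp separated the S961 livers from the dex livers. Acacb was 12, 12.6, 14.1, and 9.27 RPKM with dex and 19.7, 24.9, 16.4, and 19.5 RPKM with S961, without overlap (0.72, SE 0.17, adjusted p = 0.013 by limma). Thrsp was 1187, 1277, 1240, and 949 RPKM with dex and 686, 498, 306, and 355 RPKM with S961, again without overlap (−1.39, SE 0.28, adjusted p = 0.0039). With Srebf1 this made 1 member higher and 2 lower, against 4.64% and 2.83% of tested genes and 7.47% in either direction, and 3 of 10 members without overlap, against 10.8%. Neither gene was called against fed vehicle, where Acacb had 12, 9.73, 20.4, and 14 RPKM and Thrsp 862, 594, 1050, and 350 RPKM. The Acacb call ended without S961 replicate 2 (0.62, adjusted p = 0.05), and without fed vehicle replicate 3 Acacb was called higher with S961 (0.73, adjusted p = 0.022) and with dex + S961 (0.64, adjusted p = 0.012). Without dex replicate 4, Me1 was called higher with S961 than with dex (0.67, adjusted p = 0.043).

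With dex alone no member was called by limma against fed vehicle, against 3.19% of tested genes called. An unadjusted p under 0.05 by limma was reached by 2 members and by 2085 of the 11251 tested genes. No member was without overlap, against 10.5% of tested genes. Adding dex to S961 called no member either, against 1.91% of tested genes. Here 5 members and 1357 of the 11251 tested genes had an unadjusted p under 0.05 by limma. Values of 2 members, Fasn and Scd1, did not overlap, against 6.85%. Deviations of same-numbered livers of the dex + S961 and S961 groups had r of 0.113 to 0.594 over 4 pairs. These r values cannot show pairing, because the group means include replicate 4 with its library codes of another series. With the replicate number as a block, Mlxipl (−0.65, adjusted p = 0.034 by limma) was called lower and Thrsp (0.88, adjusted p = 0.039) higher. Without dex + S961 replicate 3, Acly was called lower against S961 (−0.52, adjusted p = 0.041) and against unfed vehicle (−0.56, adjusted p = 0.028), where Srebf1 was otherwise the 1 member called, against 1% of tested genes called lower and 2.32% in either direction, and Srebf1 and Acacb the 2 without overlap, against 10.6%. Mlxipl was highest in replicate 4 of every injected group. It was 37, 50.6, 59.9, and 86.3 RPKM in fed vehicle livers and 35.5, 34.3, 34.7, and 49.7 RPKM in dex + S961 livers, which overlapped (−0.55, SE 0.29, adjusted p = 0.24), and with a term for replicate 4, whose labels carry library codes of another series, it was called lower (adjusted p = 0.025).

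The term for replicate 4 also called Thrsp higher with dex than with vehicle (0.81, adjusted p = 0.04 by limma) and higher with dex + S961 than with S961 (0.88, adjusted p = 0.04), and Acly lower with dex + S961 than with vehicle (−0.4, adjusted p = 0.037). Within replicates 1 to 3 alone, Scd1 was called lower with the meal (−1.21, adjusted p = 0.016) and Me1 lower with dex (−0.59, adjusted p = 0.027). Elovl6 (0.57, adjusted p = 0.011) and Me1 (0.75, adjusted p = 0.0048) were then called higher with S961 than with dex, where Acacb was no longer called (0.62, adjusted p = 0.074). The 6 macrophage markers summed to 69.8 to 103 RPKM in fed vehicle livers, 49.8 to 62.2 RPKM in unfed vehicle livers, 47 to 70.1 RPKM with S961, 53.6 to 62.3 RPKM with dex + S961, and 43 to 73.7 RPKM with dex. The 5 endothelial markers summed to 61 to 67.5 RPKM in fed vehicle livers and 38.9 to 59.9 RPKM in the other 4 groups, with 2 called lower with dex. The part of both lists in these results was not tested.

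**Figure D4:**
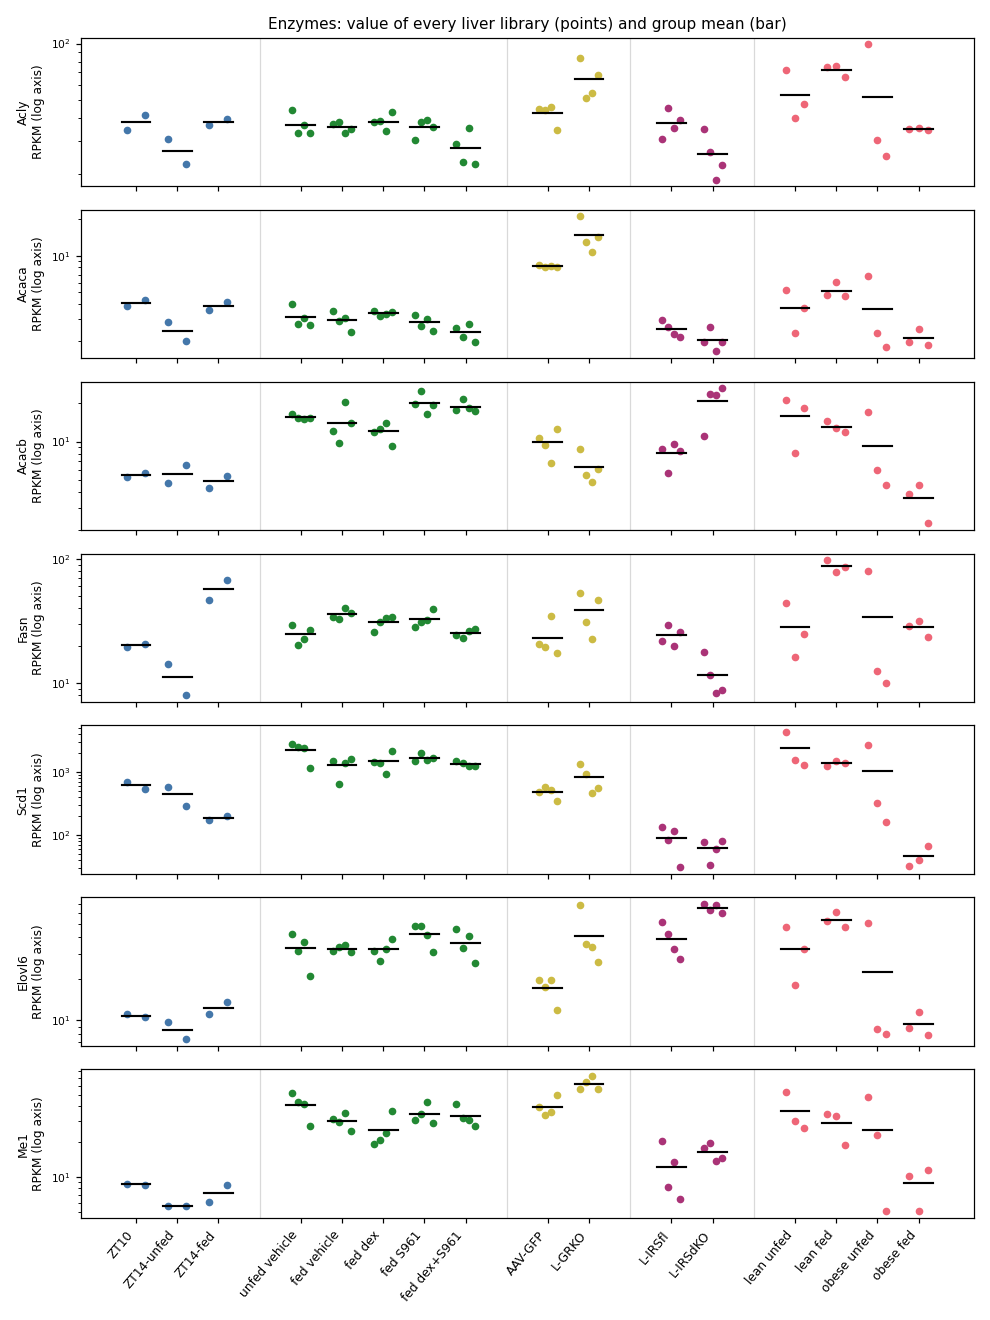
Expression of the 7 enzymes in every library (points; RPKM, log axis) with the group mean (bar), by group and experiment. Scd1 lies between 32.7 and 67.7 RPKM in the obese fed livers and between 1231 and 1512 RPKM in the lean fed livers, and Elovl6 is higher in each L-GRKO liver than in each AAV-GFP liver.

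In the unfed L-GRKO livers, Elovl6, Acaca, Me1, and Srebf1 rose and Thrsp fell. Elovl6 was 19.7, 17.5, 19.7, and 11.9 RPKM in the AAV-GFP livers and 68.2, 35.5, 34.1, and 26.4 RPKM in the L-GRKO livers, a 2.24-fold difference (1.17, SE 0.26, adjusted p = 0.024 by limma). Acaca, which encodes the cytosolic carboxylase that commits acetyl-CoA to fatty acid synthesis, was 8.36, 8.09, 8.26, and 8.06 RPKM against 21, 12.9, 10.6, and 14.2 RPKM (0.76, SE 0.17, adjusted p = 0.024). In both, each L-GRKO liver lay above each AAV-GFP liver. Me1 was 39.9, 33.8, 36, and 49.8 RPKM against 56.3, 65.1, 72.7, and 56.1 RPKM (0.65, SE 0.13, adjusted p = 0.017), and Srebf1 was 20.1, 27.9, 31.4, and 22.1 RPKM against 37.2, 39.1, 39, and 66 RPKM (0.8, SE 0.19, adjusted p = 0.035). The groups of both genes were again apart.

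These 4 members called higher stood against 4.46% of the 11649 tested genes, and the 1 called lower, Thrsp, against 2.22% (6.68% in either direction). Acly, the citrate lyase, was the fifth member above its controls in every liver, with 44.7, 44.2, 45.8, and 34.2 RPKM against 83.7, 51.1, 54.1, and 67.6 RPKM, and was not called (0.58, SE 0.16, adjusted p = 0.054), so 5 of 10 members did not overlap, against 12.8% of tested genes. The median difference over the 10 members was 0.67, against 0.08 over all tested genes. With the libraries rescaled to equal medians the members' median was 0.57 and 3 members were called.

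Thrsp was 506, 263, 286, and 115 RPKM in the AAV-GFP livers and 68.3, 58.9, 60.3, and 146 RPKM in the L-GRKO livers. It was called lower at a 0.301-fold level (−1.73, SE 0.41, adjusted p = 0.03 by limma), although L-GRKO replicate 4 lay above AAV-GFP replicate 4. Elovl5, an elongase of polyunsaturated fatty acids, rose from 41.6 to 108 RPKM (1.36, SE 0.14, adjusted p = 0.00051). It was 1 of the 2 genes called, 1 in each direction, of the 31 tested in the 3 lists of further pathway genes. Of all tested genes 6.68% were called.

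The L-GRKO calls depended on single libraries. Without AAV-GFP replicate 2 no member was called by limma, with adjusted p values of 0.073 for Srebf1, 0.071 for Acaca, 0.072 for Elovl6, 0.054 for Me1, and 0.093 for Thrsp, and without L-GRKO replicate 2 only Acaca was. Without AAV-GFP replicate 4 the calls of Srebf1 (adjusted p = 0.077), Acaca (0.051), and Elovl6 (0.056) ended, without AAV-GFP replicate 1 those of Srebf1 (0.08) and Thrsp (0.058), and without L-GRKO replicate 3 those of Srebf1 (0.054) and Thrsp (0.077). Without L-GRKO replicate 2 the adjusted p was 0.063 for Srebf1, 0.056 for Elovl6, 0.055 for Me1, and 0.089 for Thrsp. Thrsp also lost its call without AAV-GFP replicate 3 (0.062) or L-GRKO replicate 1 (0.078), and Acacb was called lower without AAV-GFP replicate 3 (−0.78, adjusted p = 0.044). The summed expression of 8 adipocyte markers was 536 to 699 RPKM in the AAV-GFP livers and 1207 to 1889 RPKM in the L-GRKO livers. Nearly all of it was Car3, which hepatocytes also express (524 to 689 against 1198 to 1880 RPKM), while Adipoq was at most 0.58 RPKM and Plin1 at most 0.09 RPKM in any of the 8 livers. The 3 erythroid markers were all called higher and summed to 223 to 289 RPKM against 331 to 623 RPKM, and their part in the result was not tested.

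In the fed, dex-treated L-IRSdKO livers, the regulators and the synthase were lower and Acacb and Elovl6 were higher. Srebf1 was 34.7, 42.7, 23.4, and 43.4 RPKM in the floxed controls and 18.1, 8.59, 6.9, and 7.82 RPKM in the L-IRSdKO livers (−1.82, SE 0.3, adjusted p = 0.0068 by limma). Fasn was 22, 29.3, 19.8, and 26 RPKM against 17.8, 11.6, 8.34, and 8.78 RPKM (−1.08, SE 0.23, adjusted p = 0.016), and Mlxipl was 111, 132, 129, and 107 RPKM against 87.5, 87.4, 75.1, and 88.1 RPKM (−0.5, SE 0.09, adjusted p = 0.0088). Every knockout liver lay below every control for these 3 genes. Thrsp was 515, 416, 440, and 454 RPKM against 403, 142, 228, and 113 RPKM (−1.21, SE 0.34, adjusted p = 0.039).

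Acacb moved opposite to Srebf1, with 8.8, 5.63, 9.51, and 8.42 RPKM in the controls and 11.1, 23.6, 23.2, and 26.3 RPKM in the L-IRSdKO livers, a 2.43-fold difference (1.28, SE 0.27, adjusted p = 0.015 by limma). Elovl6 was 51.3, 42.4, 32.9, and 27.6 RPKM against 69.3, 62.6, 68.6, and 59.6 RPKM (0.78, SE 0.17, adjusted p = 0.017). Both rose without overlap. The 2 members called higher stood against 9.06% of the 12966 tested genes and the 4 called lower against 8.31% (17.4% in either direction), and 6 of 10 members did not overlap, against 21.7%. Acly (30.8, 45.3, 35.2, and 39 against 34.8, 26.3, 18.6, and 22.4 RPKM) overlapped in knockout replicate 1 (−0.57, SE 0.19, adjusted p = 0.069) and was called lower without it (−0.73, adjusted p = 0.011).

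The calls of Srebf1, Mlxipl, Fasn, and Acacb held without any 1 library. Elovl6 lost its call without L-IRSdKO replicate 3 (0.76, adjusted p = 0.053). Thrsp lost its call by limma without any of the 4 controls (adjusted p = 0.072 to 0.087) and without L-IRSdKO replicate 2 (−1.06, adjusted p = 0.11), 3 (−1.28, 0.076), or 4 (−0.95, 0.087). The adipocyte markers summed to 227 to 371 RPKM in the controls and 127 to 200 RPKM in the L-IRSdKO livers, and Adipoq was listed at 0 in all 4 of the latter. The 6 macrophage markers summed to 149 to 275 RPKM in the controls and 259 to 329 RPKM in the L-IRSdKO livers, and 3 of 5 endothelial markers were called higher. The cholangiocyte markers summed to 19.7 to 46.2 RPKM in the controls and 7.87 to 13.9 RPKM in the L-IRSdKO livers, with 2 of 4 tested called lower. The part of these in the result was not tested.

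Over 3 lists of further pathway genes, 13 of 31 were called in the L-IRSdKO livers, against 17.4% of all tested genes (9.06% higher and 8.31% lower). Of 9 genes of precursor and NADPH supply, 5 were called lower and none higher, among them Acss2, the cytosolic acetyl-CoA synthetase (38.2 against 17.1 RPKM on average, −1.15, SE 0.13, adjusted p = 0.0018 by limma), with Pklr, Slc25a1, and Taldo1. Of 11 genes that process or partner the regulators, Insig1 (−1.04, SE 0.24, adjusted p = 0.021), which retains SREBP in the endoplasmic reticulum, and Mlx (−0.51, SE 0.11, adjusted p = 0.015), the partner of ChREBP, were called lower. Of 11 tested genes of elongation, desaturation, and carboxylase control, 4 were called lower and 2, Elovl5 (1.28, SE 0.23, adjusted p = 0.0092) and Mlycd (0.29, SE 0.078, adjusted p = 0.035), higher.

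The same 3 lists were read in the other comparisons. With the meal, 2 of 31 genes were called in untreated mice (0.99% of all tested genes), 4 after vehicle (3.13%), 4 in lean mice (10.2%), and 1 in obese mice (1.22%), all higher apart from Acss2, which was lower after vehicle (−0.88, SE 0.21, adjusted p = 0.031 by limma). Mid1ip1, which encodes a partner of acetyl-CoA carboxylase and a relative of Thrsp, rose by 2.31 (adjusted p = 0.0032 by limma) in untreated, 1.16 (0.033) in vehicle-injected, and 2.87 (0.00018) in lean mice. Mlx was the 1 gene of the 3 lists called for the meal in obese mice (0.53, SE 0.072, adjusted p = 0.0046). With S961, 1 gene was called higher and 3 lower (1.9% of all tested genes), and with dex + S961 1 higher and 5 lower (10.6%), both against fed vehicle. Insig1 fell with S961 from 65.8 to 27 RPKM (−1.26, SE 0.19, adjusted p = 0.002) while Elovl5 rose from 70.6 to 155 RPKM (1.11, SE 0.22, adjusted p = 0.01). With dex + S961, Insig1 (−1.2, SE 0.19, adjusted p = 0.00067), Mid1ip1 (−1.74, SE 0.28, adjusted p = 0.00085), Elovl1 (−0.82, SE 0.14, adjusted p = 0.0012), and Scd2 (−0.63, SE 0.15, adjusted p = 0.0093) fell, and Insig2, a relative of Insig1, rose (1.21, SE 0.23, adjusted p = 0.0027). No gene of the 3 lists was called with dex against fed vehicle, against 3.19% of all tested genes. In that comparison 3 of them had an unadjusted p under 0.05 by limma, as did 2085 of the 11251 tested genes.

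In the diet experiment the meal raised Srebf1 in lean mice. The obese fed livers had low desaturase expression, a difference from lean fed livers that was not called in the fit of all diet groups. Srebf1 was 14.2, 21.7, and 17.5 RPKM in lean unfed livers and 124, 109, and 94.8 RPKM in lean fed livers, a 6.05-fold difference (2.6, SE 0.27, adjusted p = 0.0003 by limma) without overlap. The endothelial markers summed to 52.7 to 62.9 RPKM in lean unfed, 39.1 to 45.1 RPKM in lean fed, and 31.8 to 40.6 RPKM in obese unfed livers, and their part in these results was not tested. In obese mice Srebf1 was 65.4, 54.2, and 34.3 RPKM unfed and 53.1, 46.5, and 87.3 RPKM fed, which overlapped (0.27, SE 0.27, adjusted p = 0.58). The difference between the meal's effect in obese and in lean mice was −2.33 (SE 0.38, adjusted p = 0.022), above the 0.01 set for this experiment, which 0.131% of tested genes passed. The obese unfed livers lay above the lean unfed livers for Srebf1 (1.47, SE 0.27, adjusted p = 0.014).

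Srebf1 was the 1 member called for the meal in lean mice, against 7% of the 11434 tested genes called higher and 10.2% in either direction, and 3 of 10 members did not overlap, against 43.3%. Thrsp was 720, 277, and 517 RPKM in lean unfed livers and 1790, 1388, and 866 RPKM in lean fed livers (1.46, SE 0.38, adjusted p = 0.018 by limma), and Fasn was 43.8, 16.3, and 25 RPKM against 97.3, 77.8, and 86 RPKM (1.71, SE 0.62, adjusted p = 0.067). Both were apart and neither passed 0.01. In obese mice no member was called for the meal by limma, against 1.22% of tested genes. An unadjusted p under 0.05 by limma was reached by 2 members and by 2878 of the 11434 tested genes. Values of 1 member, Scd1, did not overlap, against 27.8%. Between obese and lean unfed livers limma called no member, against 0.77% of tested genes. Again 2 members had an unadjusted p under 0.05 by limma, as did 2624 of the 11434 tested genes. Values of 1 member, Srebf1, did not overlap, against 22.9%. In a fit of the lean groups alone, Srebf1 (adjusted p = 0.00018) and Fasn (0.0084) were called higher, against 6.12% of tested genes and 9.66% in either direction.

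Scd1 was 1231, 1512, and 1388 RPKM in the lean fed livers and 32.7, 40.6, and 67.7 RPKM in the obese fed livers, a 0.033-fold level (−4.92, SE 0.82, adjusted p = 0.036 by limma). Elovl6 was 52.6, 60.6, and 47.1 RPKM against 8.79, 11.6, and 7.86 RPKM (−2.45, SE 0.57, adjusted p = 0.081), and Acacb was 14.5, 12.7, and 11.8 RPKM against 3.87, 4.57, and 2.26 RPKM (−1.78, SE 0.45, adjusted p = 0.093). All obese fed livers lay below all lean fed livers for these enzymes. The same held for Srebf1, Thrsp, Acly, Acaca, Fasn, and Me1, whereas Mlxipl was higher in the obese livers (66.2, 66.6, and 51.3 against 91.9, 76.2, and 77.7 RPKM), so that all 10 members did not overlap, against 32.6% of tested genes. The median difference was −1.37 over the members and 0.01 over all tested genes.

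No member was called and 0% of the 11434 tested genes were called between obese and lean fed livers by limma at 0.01 in the fit of all 4 diet groups. In that fit 9 members had an unadjusted p under 0.05 by limma, as did 2284 of the tested genes. In a fit of the obese and lean fed groups alone, 6 members were called lower, against 0.412% of tested genes called lower and 0.816% in either direction. They were Scd1 (adjusted p = 0.0011), Elovl6 (0.0016), Acly (−1.04, 0.0018), Fasn (−1.62, 0.0029), Acaca (−1.12, 0.0081), and Acacb (0.0081). Car3 was 901 to 1402 RPKM in the lean fed and 1336 to 2431 RPKM in the obese fed livers, with Adipoq at most 0.12 RPKM, and the 6 hepatocyte markers summed to 57550 to 61410 RPKM and 48920 to 52060 RPKM. The part of these in the result was not tested.

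Each of the 7 enzymes varied more among the obese unfed livers (coefficient of variation 74.5 to 134%) than within any of the other 3 diet groups (at most 70.2%). Obese unfed replicate 1 had 2668 RPKM of Scd1, 50.4 RPKM of Elovl6, and 79.5 RPKM of Fasn, whereas replicates 2 and 3 had 321 and 163 RPKM of Scd1, 8.67 and 7.96 RPKM of Elovl6, and 12.6 and 9.97 RPKM of Fasn. Replicate 1 lay within the range of the lean unfed livers for Scd1 (4296, 1529, and 1299 RPKM). It lay above all lean unfed livers for Fasn (16.3 to 43.8 RPKM) and Elovl6 (18 to 47.4 RPKM). Without it, Scd1 (−3.16, adjusted p = 0.0044 by limma) and Elovl6 (−1.81, adjusted p = 0.0074) were called lower in obese than in lean unfed livers.

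Across the 54 libraries, with values centred within each experiment, the members differed in how closely they followed each other. Pearson's r to the mean of the other 9 members was 0.86 for Acly and for Acaca, 0.75 for Fasn, 0.74 for Elovl6, 0.6 for Scd1, and 0.54 for Me1, against 0.3 for Srebf1, 0.24 for Acacb, 0.11 for Thrsp, and −0.11 for Mlxipl. Among the 45 pairs the median r was 0.31, with the highest for Acly and Acaca (0.88) and the lowest for Srebf1 and Acacb (−0.47). Srebf1 was closest among the members to Fasn (0.64) and was near 0 with Elovl6 (0.02, and −0.03 after median-ratio scaling). These libraries share groups, library series, and depth, so the values are descriptions.

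**Figure D5:**
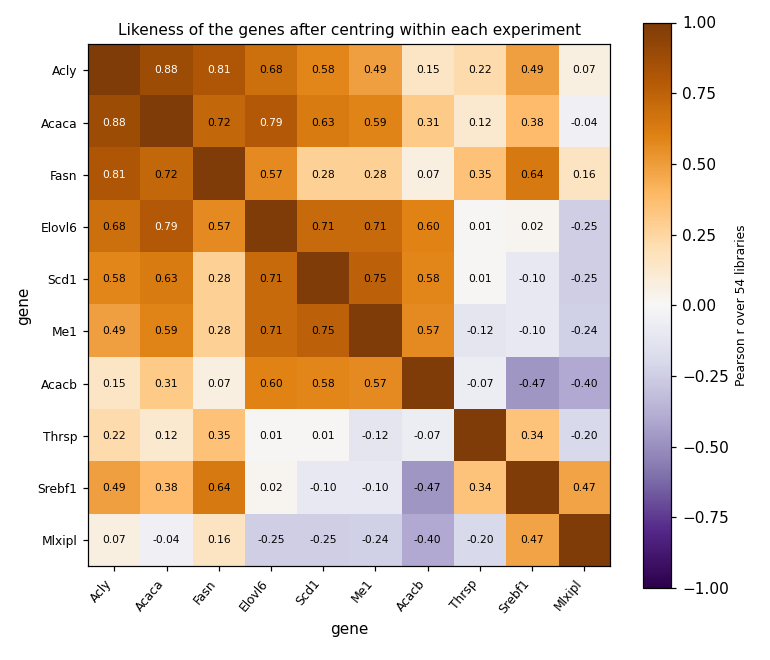
Pearson's r between each pair of the 10 genes over 54 libraries, on log2 values centred within each experiment (colour scale from −1 to 1). Acly, Acaca, Fasn, and Elovl6 have r of 0.57 to 0.88 with each other, and Srebf1 and Acacb have r of −0.47.

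Of the other genes among the 10521 tested in every experiment, those of Lss (r = 0.836), Tmem97 (0.809), Gcat (0.765), Rdh11 (0.759), Qdpr (0.755), Fdps (0.743), Enpep (0.73), Fdft1 (0.726), and Tkt (0.715) were among the 10 profiles most like the members' mean. Lss, Fdps, and Fdft1 encode enzymes of cholesterol synthesis. S1pr1 (0.864) and Tmem150a (0.845) were among the 3 genes most like Srebf1, and those most like Mlxipl were Fam193b (0.809), Tle2 (0.769), and Zhx2 (0.76). The 99th percentile of r to the members' mean over all genes was 0.53.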

How the data were processed

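RNA was sequenced from 54 mouse livers in 5 experiments. The authors aligned reads to mm9 with STAR and deposited RPKM per RefSeq ID, with no counts, and the tool that counted the reads is not given in the sources used here. The GR and FOXO1 peak lists, called by HOMER, hold peaks concordant between replicates of unfed livers at ZT14. These lists and the DHS list, called on combined reads, were deposited as positions only. The RPKM values as deposited were taken as log2(RPKM + 0.5). The 35407 of 35707 IDs with a symbol gave 24312 symbols, each read from the ID with the highest mean. Each experiment was fitted over the genes averaging 0.5 RPKM or more, with limma 3.58.1 (R 4.3.3; empirical Bayes with a variance trend, no block), with Benjamini-Hochberg adjustment over all genes. Thresholds of 0.01 and 0.05 follow the study. The fits were tested on simulated data. Where nothing says that libraries came from separate mice, p values measure only the spread between libraries.

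Peaks were assigned within 50 kb of the 5′ end of a gene in an mm9 annotation. Pairing by replicate number was checked by whether the deviations of every same-numbered pair from the group means had r over 0.1. The main fits treated no livers as paired. Likeness was Pearson's r over log2 values centred within experiments. The named genes were the 10 members, the genes of 3 pathway lists past the threshold, the 10 genes most like the members' mean and the 3 most like each of Srebf1 and Mlxipl, and the targeted genes. Mid1ip1, Elovl5, and the others named from the lists were named for passing the test. Members and lists were chosen with earlier results of these data known. Alternatives were pseudocounts of 0.1 and 1, filters at 0 and 2 RPKM, all RefSeq IDs, median-ratio and quantile scaling, no variance trend, the replicate block, a term for the library code series, the other threshold, the compared groups alone, each library left out, and windows of 20 and 100 kb, with replicates 1 to 3 of the injection experiment alone added after the data were seen. H3K27Ac data were not analysed here, and some genes that these rules name are not reported here.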

Additional observations from a re-analysis of the deposited data

Results flagged for a closer look

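In groups of 4 livers, 7 of 90 sets of values of 1 member had 1 liver standing apart from the other 3 by Dixon's criterion at the 95% level, a criterion that chance meets in about 1 of 20 groups. Srebf1 was 66 RPKM in L-GRKO replicate 4, against 37.2 to 39.1 RPKM in the other 3, and 18.1 RPKM in L-IRSdKO replicate 1, against 6.9 to 8.59 RPKM. Thrsp was 146 RPKM in L-GRKO replicate 4, against 58.9 to 68.3 RPKM, so the same liver stood apart for both genes. Mlxipl was 101 RPKM in fed dex replicate 4, against 38.1 to 48.5 RPKM, and 49.7 RPKM in fed dex + S961 replicate 4, against 34.3 to 35.5 RPKM, and both livers carry the library codes of the second series. Mlxipl was also 75.1 RPKM in L-IRSdKO replicate 3, against 87.4 to 88.1 RPKM. Acly was 34.2 RPKM in AAV-GFP replicate 4, against 44.2 to 45.8 RPKM. Neither of the interactions tested, of dex with S961 and of diet with the meal, was called for any member.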

How the results depend on the processing

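Of 16 comparisons of 2 groups and 2 interactions, the number of members called changed by over 1.5 times as follows, and the cause was not tested unless given. For ZT14-fed against ZT14-unfed, called for 2 members, it was 0 with no filter, with quantile normalization, with no variance trend, with the replicate block, and with the compared groups alone, the last fitted on 4 libraries. For ZT14-unfed against ZT10 it rose from 0 to 1 with the filter at 2 RPKM and 2 at a threshold of 0.05, and for ZT14-fed against ZT10 from 0 to 2, 2, and, with those groups alone, 3. For fed against unfed vehicle it was 1 rather than 2 with median-ratio scaling, at 0.01, and with those groups alone. The replicate block, the term for the library code series, and, for dex, the first series alone gave 1, 1, and 1 member for dex against fed vehicle in place of 0. Block and series term gave 4 and 4 in place of 2 for dex + S961 against fed vehicle, 3 and 2 in place of 1 against unfed vehicle, and 2 and 2 in place of 0 against S961. At 0.01, dex + S961 against fed vehicle kept 1 call, L-IRSdKO 2 of 6, and L-GRKO 0 of 5. L-GRKO had 1 call with no filter, 3 after median-ratio scaling, and 2 after quantiles were equalised. At 0.05 the diet experiment had 2 calls for the lean meal and 1 each for the obese meal, obese against lean unfed, obese against lean fed, and the interaction of diet and meal, and with the compared groups alone 2 for the lean meal and 6 for obese against lean fed. With each library left out in turn, the number of called members ranged from 0 to 1 for ZT14-unfed against ZT10, 0 to 3 for ZT14-fed against ZT14-unfed, 1 to 3 for fed against unfed vehicle, 1 to 2 for S961 and 1 to 3 for dex + S961 against fed vehicle, 1 to 2 for dex + S961 against unfed vehicle and 0 to 1 against S961, 0 to 5 for L-GRKO, and 0 to 2 for obese against lean unfed.

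Same-numbered libraries of different groups were checked for pairing by the correlation of their deviations from the group means. It was −0.029 to 0.048 over 6 pairs in the feeding experiment, −0.12 to 0.605 over 40 in the injection experiment, −0.055 to 0.154 over 4 in the L-GRKO, −0.059 to 0.064 over 4 in the L-IRSdKO, and −0.201 to 0.215 over 18 in the diet experiment. In the injection experiment the 10 pairs of replicate 4 had r of 0.441 to 0.605, and of the other 30 pairs 17 were over 0.1. Every pair was over 0.1 only between dex + S961 and S961 (0.113 to 0.594) and between dex + S961 and dex (0.108 to 0.443). These r values cannot show pairing, because the group means include replicate 4 with its library codes of another series. The main fits therefore treated no livers as paired. With the replicate block, Srebf1 (adjusted p = 0.016 by limma) and Fasn (0.022) were not called for the meal in untreated mice, nor Srebf1 (0.051) and Thrsp (0.065) in L-GRKO livers, where Acacb was (0.042). Calls gained were those of Thrsp with dex (0.039), Mlxipl (0.03) and Acly (0.05) with dex + S961 against fed vehicle, Mlxipl (0.03) and Acaca (0.047) against unfed vehicle, and Mlxipl (0.034) and Thrsp (0.039) against S961.

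Median-ratio scaling moved the median of all genes from −0.1 to 0.01 for ZT14-unfed against ZT10, from 0.12 to 0 for ZT14-fed against ZT14-unfed, and from −0.14 to 0 for dex + S961 against fed vehicle. It moved the share of calls that were higher, over all genes, from 32.3 to 62.2%, from 57.4 to 40.4%, and from 25.5 to 58.3% in these, and from 81.5 to 51.6% for fed against unfed vehicle, 31.5 to 58.8% for dex, 49.5 to 70.3% for S961, 56.7 to 70.1% for dex + S961 against unfed vehicle, 54.4 to 73% against S961, 66.7 to 44.3% for L-GRKO, 68.4 to 47.6% for the lean meal, and 54.5 to 31.8% for obese against lean unfed.

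No difference called for a member changed sign in any setting. Uncalled differences that did were, under median-ratio scaling, Acly for ZT14-fed against ZT10 (−0.01), Elovl6 for fed against unfed vehicle (−0.07), Mlxipl (0.07) and Elovl6 (0.08) with dex, Acly (0.08) and Acaca (0.02) with S961, and Me1 for dex + S961 against S961 (0.02). Under quantile normalization they were Mlxipl (0.02) and Elovl6 (0.03) with dex and Acly (0.03) and Acaca (0.05) with S961. In the first library code series alone, chosen after seeing the data, they were Elovl6 for fed against unfed vehicle (−0.13) and, for the interaction of dex and S961, Srebf1 (0.25) and Acacb (−0.01). With each library left out in turn, 44 uncalled differences changed sign at least once. Acaca ranged from −0.18 to 0.03 for ZT14-fed against ZT10, −0.13 to 0.03 for fed S961 against fed vehicle, −0.14 to 0.04 for fed vehicle against unfed vehicle, −0.8 to 0.03 for obese fed against obese unfed, and −0.69 to 0.15 for obese unfed against lean unfed. Acacb ranged from −0.4 to 0.04 for ZT14-fed against ZT14-unfed, −0.21 to 0.23 for ZT14-unfed against ZT10, −0.18 to 0.02 for fed dex + S961 against fed S961, −0.33 to 0.01 for fed dex against fed vehicle, −0.1 to 0.24 for the interaction of dex and S961, and −0.59 to 0.08 for lean fed against lean unfed. Acly ranged from −0.13 to 0.14 for ZT14-fed against ZT10, −0.04 to 0.07 for fed S961 against fed vehicle, −0.08 to 0.06 for fed vehicle against unfed vehicle, −0.65 to 0.33 for obese fed against obese unfed, and −0.89 to 0.09 for obese unfed against lean unfed. Elovl6 ranged from −0.01 to 0.26 for fed dex + S961 against fed vehicle, −0.05 to 0.3 for fed dex + S961 against unfed vehicle, −0.11 to 0.06 for fed dex against fed vehicle, −0.16 to 0.17 for fed vehicle against unfed vehicle, and −1.14 to 0.15 for obese fed against obese unfed. Fasn ranged from −0.02 to 0.14 for fed S961 against fed dex, −0.05 to 0.12 for fed dex + S961 against unfed vehicle, −0.19 to 1.28 for obese fed against obese unfed, and −1.19 to 0.28 for obese unfed against lean unfed. Me1 ranged from −0.18 to 0.06 for fed dex + S961 against fed S961 and −0.01 to 0.2 for fed dex + S961 against fed vehicle. Mlxipl ranged from −0.28 to 0.17 for ZT14-fed against ZT10, −0.04 to 0.42 for fed S961 against fed dex, −0.1 to 0.31 for fed S961 against fed vehicle, −0.32 to 0.18 for fed dex against fed vehicle, −0.32 to 0.09 for fed vehicle against unfed vehicle, −0.33 to 0.28 for the interaction of diet and meal, −0.11 to 0.5 for lean fed against lean unfed, and −0.04 to 0.33 for obese fed against obese unfed. Scd1 ranged from −0.15 to 0.3 for fed dex + S961 against fed vehicle and −0.08 to 0.42 for fed dex against fed vehicle. Srebf1 ranged from −0.22 to 0.15 for the interaction of dex and S961. Thrsp ranged from −0.22 to 0.95 for ZT14-fed against ZT14-unfed, −0.21 to 0.96 for ZT14-unfed against ZT10, −0.01 to 0.52 for fed dex + S961 against fed vehicle, −0.09 to 0.44 for fed vehicle against unfed vehicle, −0.15 to 0.38 for the interaction of dex and S961, and −0.59 to 0.1 for obese unfed against lean unfed.

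Of the single-member values under other settings, 2012 kept direction and side of the threshold, 14 changed direction, 40 lost a call, and 44 gained one, and with libraries left out the numbers were 1226, 82, 38, and 14. Members with a GR peak numbered 8 and 9 within 20 and 100 kb, those with a FOXO1 peak 7 and 10, and under median-ratio scaling no member's r to the other 9 changed sign, while that of Srebf1 with Elovl6 went from 0.02 to −0.03. Depth as estimated here was lowest in the L-IRSdKO experiment, where the fewest estimated reads of a member were 55.8.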
